A study of Mus musculus with 2 samples.

Results

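The circadian clock genes examined here are 10 named genes, Arntl, Clock, Per1, Per2, Per3, Cry1, Cry2, Nr1d1, Nr1d2 and Dbp, chosen by symbol from the 32285 genes listed in each of 2 single-cell count matrices of mouse pancreatic islets. All 10 were found in both matrices. The islets came from NOD mice, an inbred strain whose islets are infiltrated by immune cells as autoimmune diabetes develops. The mice were 5 weeks of age at the start and ate a HAMS or a HAMSAB diet for 5 weeks. HAMS is known in the field as high-amylose maize starch, and HAMSAB as an acetylated and butyrylated form of it, from which gut bacteria release acetate and butyrate. Each diet has 1 library, and the labels give neither the number of mice in it nor the hour of harvest. No difference between the diets therefore has a replicate check, no test exists, and every interval below is a 95% interval for counting error only.

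The clock is a loop of transcription and repression that runs in nearly every cell. CLOCK and ARNTL (also called BMAL1) bind E-box sequences and switch on the Period genes (Per1 to Per3), the cryptochromes (Cry1 and Cry2), the nuclear receptor repressors Nr1d1 and Nr1d2 (REV-ERB alpha and beta) and the output factor Dbp. PER and CRY proteins then return to inhibit CLOCK and ARNTL, and the REV-ERB proteins repress Arntl. In peripheral tissues RNA of Nr1d1, Dbp and the Period genes therefore peaks at a different time of day from RNA of Arntl. Beta, alpha and delta cells of the islet hold clocks of their own, which are linked to the daily rhythm of hormone release. In the account below Per1, Per2, Per3, Dbp, Nr1d1 and Nr1d2 are read as 6 genes of the arm opposite to Arntl.

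RefSeq promoter windows (build GRCm38.p6, 250 bases before the annotated start) were matched for 9 of the 10 genes. The windows of Per3, Nr1d1 and Cry2 are shown because the results below turn on these genes. Capitals mark the matches to clock motifs, searched on both strands: the E-box CACGTG, the E′-box CACGTT, which reads as AACGTG from the other strand, the D-box TTATGTAA or TTACGTAA, which DBP and its relatives bind, the ROR element TAGGTCA and the cyclic AMP response element TGACGTCA.
Per3, chr4:151044666-151044915, minus strand: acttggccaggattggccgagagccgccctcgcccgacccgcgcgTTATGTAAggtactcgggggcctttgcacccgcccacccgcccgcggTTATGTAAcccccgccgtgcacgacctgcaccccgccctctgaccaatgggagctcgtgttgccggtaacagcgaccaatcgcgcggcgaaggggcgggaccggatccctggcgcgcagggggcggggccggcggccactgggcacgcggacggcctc
Nr1d1, chr11:98775378-98775627, minus strand: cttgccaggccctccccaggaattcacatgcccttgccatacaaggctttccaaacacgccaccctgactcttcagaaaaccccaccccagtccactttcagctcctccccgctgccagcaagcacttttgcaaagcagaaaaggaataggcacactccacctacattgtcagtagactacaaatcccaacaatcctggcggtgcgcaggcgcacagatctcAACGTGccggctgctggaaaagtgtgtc
Cry2, chr2:92434070-92434319, minus strand: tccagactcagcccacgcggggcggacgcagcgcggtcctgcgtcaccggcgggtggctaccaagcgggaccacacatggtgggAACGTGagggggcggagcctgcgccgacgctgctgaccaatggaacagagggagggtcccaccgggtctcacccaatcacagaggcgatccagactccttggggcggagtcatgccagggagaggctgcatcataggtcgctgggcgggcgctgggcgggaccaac
The Per3 window holds 2 D-boxes, which begin 205 and 158 bases before the start, and no E-box. The Nr1d1 window holds an E′-box 28 bases before the start, and the Cry2 window an E′-box 166 bases before it. For Nr1d1 and Cry2 this start lies upstream of the gene model given below, so these distances depend on the annotation. Among the other members, Cry1 had an E-box and an E′-box, Per1 an E-box in 1 of its windows, and Nr1d2, Dbp, Arntl and Clock none of these letters. Over 32851 windows of this length, 6.02% held an E-box, 3.85% an E′-box, 0.931% a D-box, 2.23% the ROR element and 1.55% the cyclic AMP response element. A match is a run of letters and not a measured binding site.

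By the gene models of GRCm38 (GENCODE vM21), Per3 lies on chromosome 4 at 151003652 to 151044665, inside the longer gene Camta1 on the same strand. Nr1d1 lies on chromosome 11 at 98767932 to 98775333 and overlaps Thra on the opposite strand. Dbp, on chromosome 7 at 45705088 to 45710203, overlaps Sphk2 on the opposite strand. Cry2, on chromosome 2 at 92403646 to 92434043, overlaps D930015M05Rik on the opposite strand. Nr1d2 lies on chromosome 14 at 18204054 to 18239127, where no other gene overlaps it. The strand setting of the counting is not given in the sources used here, so counts of the overlapping genes may hold reads of their partners.

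After filtering, the HAMS library held 4185 cells and the HAMSAB library 4628, with median depths of 704 and 705 unique molecular identifiers (UMIs) per cell. Of the barcodes kept, 4 occurred in both libraries. Cells were grouped into 13 classes with at least 20 cells per library, each called by its markers (beta-like and so on), apart from cluster 4, which was led by Il1r2 and Ifitm1 that stayed without a name. At this depth a clock gene is seen in few cells, so UMIs were summed over the cells of a class and divided by the class total (CPM, scaled to 1000000 UMIs of the class). The difference between the diets is the log2 ratio of HAMSAB over HAMS, with 0.5 UMI added to each sum. A gene was read in a class when both libraries together held at least 20 UMIs, and was called lower or higher when the ratio was at least 2-fold and its interval left out 0. Fewer transcripts in each cell and fewer cells of a subtype with transcripts cannot be told apart in such sums.

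Of 130 pairs of a gene and a class, 33 reached 20 UMIs, and 6 of these were called lower in HAMSAB and 0 higher. The called pairs were Per3 and Dbp in beta-like cells, Per3, Nr1d1 and Nr1d2 in alpha-like cells, and Cry2 in T-like cells. None of the 6 was called with each cell thinned to 500 UMIs, which left fewer UMIs. Delta-like cells, captured in the same libraries, had 0 called pairs, and their ratios were 0.75 for Nr1d1 and 0.97 for Nr1d2, which were below 0 after thinning to 500 UMIs per cell. Cry2 was below 0 in every class in which it reached 20 UMIs. Clock stayed within its counting error in all 6 classes in which it could be read.

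**Figure D1:**
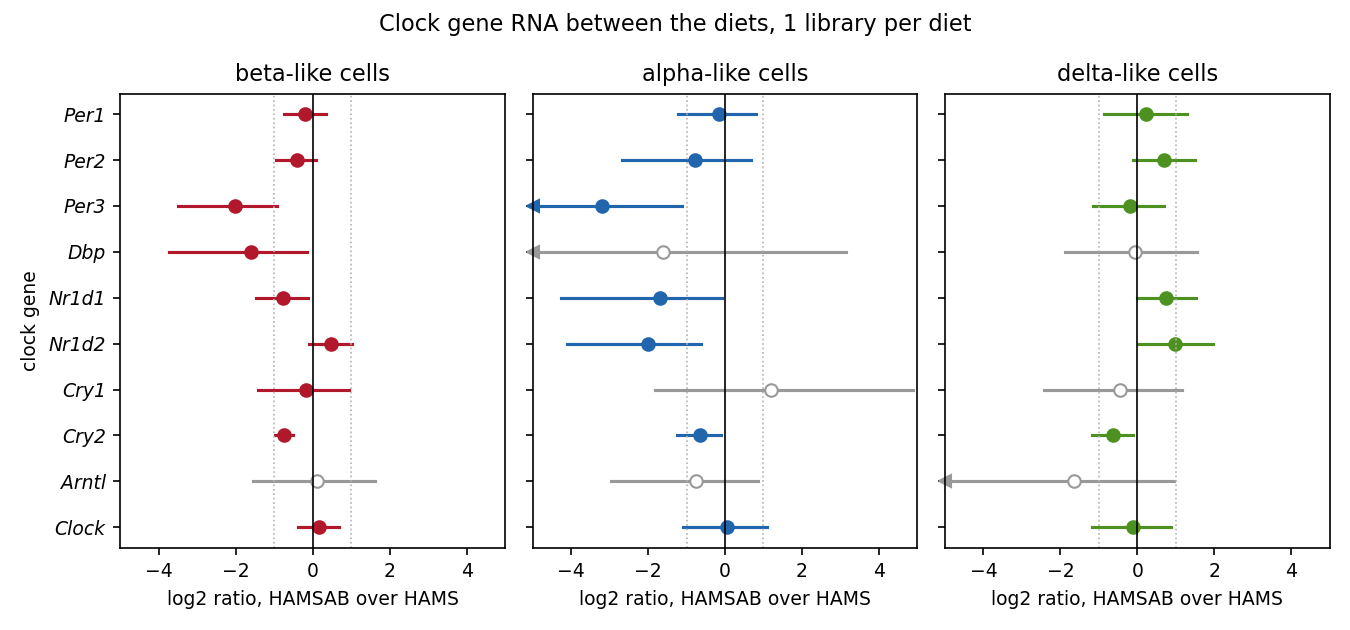
Log2 ratio of HAMSAB over HAMS (x axis) for the 10 clock genes (y axis) in the beta-like, alpha-like and delta-like classes, with 95% counting intervals from 1 library per diet. Filled points have at least 20 UMIs over both libraries, open grey points fewer, arrowheads mark intervals that run past the axis, and dotted lines mark a 2-fold difference. Per3 lies at -2.01 in beta-like and -3.19 in alpha-like cells, while Nr1d1 and Nr1d2 lie below 0 in alpha-like and above 0 in delta-like cells.

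The Period genes encode the inhibitory partners of the cryptochromes. In beta-like cells Per3 had 45 UMIs (40.9 CPM, interval 29.8 to 54.7) in HAMS and 7 UMIs (9.58 CPM, 3.85 to 19.7) in HAMSAB. The intervals of the levels do not overlap. Its log2 ratio was -2.01 (-3.49 to -0.94), and 20 of the 7665 genes read in beta-like cells had a lower one. The UMIs came from 42 HAMS and 7 HAMSAB cells, with at most 2 UMIs in any cell. In alpha-like cells Per3 had 22 UMIs (70.0 CPM, 43.8 to 106) in HAMS and 1 UMI (5.23 CPM, 0.13 to 29.2) in HAMSAB, a log2 ratio of -3.19 (-9.11 to -1.11). In delta-like cells the 2 libraries were close, with 29 UMIs (85.3 CPM) in HAMS and 18 UMIs (74.0 CPM) in HAMSAB, a ratio of -0.19 (-1.14 to 0.69). In HAMSAB the levels of Per3 in beta-like and alpha-like cells lay below that in delta-like cells (43.8 to 117 CPM) with no overlap of their intervals. In HAMS the beta-like level also lay below the delta-like level (57.1 to 123 CPM) with no overlap, while the alpha-like interval overlapped the delta-like one.

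Per2 and Per1 differed less. Per2, a Period gene whose loss disturbs daily rhythms in mice, had 101 UMIs (91.8 CPM) in HAMS and 50 UMIs (68.4 CPM) in HAMSAB in beta-like cells, a ratio of -0.42 (-0.94 to 0.08). In alpha-like cells its UMIs were 15 and 5, with a ratio of -0.78 (-2.68 to 0.67). In delta-like cells they were 26 and 30 (76.5 and 123 CPM), a ratio of 0.68 (-0.12 to 1.5). All 3 intervals take in 0. Per1, which hormones and second messengers induce quickly, could be read in 7 classes and was called in none, with ratios between -0.43 in B-like and 0.66 in T-like cells. It was the member read in most classes: 81 and 47 UMIs in beta-like cells, 26 and 14 in alpha-like, 18 and 15 in delta-like, 9 and 26 in T-like, 7 and 16 in B-like, 8 and 12 in macrophage-like cells, and 24 and 32 in cluster 4.

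The nuclear receptor repressors Nr1d1 and Nr1d2 gave opposite directions in alpha-like and delta-like cells. In alpha-like cells Nr1d2 had 29 UMIs (92.2 CPM, 61.8 to 132) in HAMS and 4 UMIs (20.9 CPM, 5.70 to 53.6) in HAMSAB, a ratio of -1.99 (-4.11 to -0.63). Nr1d1 had 18 UMIs (57.2 CPM) and 3 UMIs (15.7 CPM) there, a ratio of -1.68 (-4.27 to -0.09). Both genes were low in the HAMSAB library, and 16 of 3622 genes read in alpha-like cells lay below Nr1d2 and 35 below Nr1d1. In delta-like cells Nr1d2 had 17 UMIs (50 CPM) in HAMS and 24 UMIs (98.6 CPM) in HAMSAB, a ratio of 0.97 (0.02 to 1.97). Nr1d1 had 29 UMIs (85.3 CPM) and 35 UMIs (144 CPM), a ratio of 0.75 (0.00 to 1.52). Neither reached 2-fold, so neither was called, and 217 and 419 of the 4230 genes read there had higher ratios. With each cell thinned to 500 UMIs the 2 delta ratios turned to -0.26 for Nr1d2 and -0.18 for Nr1d1, on 17 and 27 UMIs, so their direction depends on that choice.

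In beta-like cells the REV-ERB genes did not go together. Nr1d1 had 70 UMIs (63.6 CPM) in HAMS and 27 UMIs (36.9 CPM) in HAMSAB, a ratio of -0.77 (-1.48 to -0.13), which leaves out 0 without reaching 2-fold. Nr1d2 had 60 UMIs (54.5 CPM) and 55 UMIs (75.2 CPM), a ratio of 0.46 (-0.09 to 1.02). Nr1d1 had 0 to 2 UMIs per library in T-like, B-like, macrophage-like and cDC-like (conventional dendritic) cells and in cluster 4. Ductal-like cells, the epithelium of the pancreatic ducts, had 5 and 7 UMIs of Nr1d1 (61.7 and 37.6 CPM), close to the beta-like levels, and 4 and 17 UMIs of Nr1d2 (49.4 and 91.3 CPM), a ratio of 0.76 (-0.73 to 2.92).

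Dbp, the output factor that drives D-box genes, had 20 UMIs (18.2 CPM, 11.1 to 28.1) in HAMS and 4 UMIs (5.47 CPM, 1.49 to 14.0) in HAMSAB in beta-like cells. Its ratio was -1.60 (-3.74 to -0.15). No other class reached 20 UMIs of Dbp. Delta-like cells had 9 and 6 UMIs, alpha-like cells 2 and 0, and T-like, macrophage-like and cDC-like cells 0 in either library.

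Cry2, a cryptochrome repressor, was lower in HAMSAB by a similar amount in each endocrine class. Beta-like cells had 537 UMIs (488 CPM, 448 to 531) in HAMS and 212 UMIs (290 CPM, 252 to 332) in HAMSAB, a ratio of -0.75 (-0.99 to -0.52). The ratio was -0.65 (-1.24 to -0.11) in alpha-like cells, with 99 and 38 UMIs, and -0.63 (-1.18 to -0.12) in delta-like cells, with 100 and 46 UMIs. Gamma-like cells, marked by Ppy, had 34 and 8 UMIs and a ratio of -0.76 (-2.15 to 0.31). None reached 2-fold, but 14 of the 569 genes of like count in beta-like cells and 31 of 1015 in delta-like cells had a lower ratio. In alpha-like cells 97 of 893 and in gamma-like cells 105 of 906 did. Thinned to 500 UMIs per cell, the share of beta-like cells with a Cry2 UMI was 21.0% in HAMS (956 cells, 401 shallower cells left out) and 14.5% in HAMSAB (585 cells, 145 left out), against 29.6% and 23.7% unthinned. In T-like cells, at median depths of 962.5 and 779.5 UMIs, the unthinned shares were 5.06% and 2.01%, and the thinned shares 1.13% (0.23 to 3.27) and 0.55% (0.11 to 1.6), whose intervals overlap. The authors' deposited table for beta cells lists Cry2 with a log2 fold change of -0.58, an adjusted p of 1, and detection in 20.4% of HAMSAB and 27.0% of HAMS cells. In the 8 tables of comparisons that the authors deposited, Cry2 is the single clock gene of the 10 that is listed.

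T-like cells held 19 UMIs of Cry2 (46.0 CPM) in HAMS and 14 UMIs (19.3 CPM) in HAMSAB, a ratio of -1.24 (-2.37 to -0.18). Without the 5% of cells with the most UMIs, 5 HAMS UMIs and 9 HAMSAB UMIs remained and the ratio was -0.48, not called. The level of Cry2 in T-like cells was 9.43% of that in beta-like cells in HAMS and 6.64% in HAMSAB, and that of Ins2, which T cells do not make, was 2.66% and 3.65%. Cry1 could be read in beta-like cells alone, with 19 and 11 UMIs and a ratio of -0.17 (-1.42 to 0.95).

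The activators gave no called difference in summed UMIs. Clock had 73 UMIs (66.4 CPM) in HAMS and 54 UMIs (73.9 CPM) in HAMSAB in beta-like cells, a ratio of 0.16 (-0.38 to 0.68). It had 21 and 13 UMIs in alpha-like cells (ratio 0.05) and 23 and 15 in delta-like cells (ratio -0.12), and ratios of -0.26 in T-like cells, 0.70 in B-like cells and 0.50 in cluster 4. With each cell weighted equally, Clock in B-like cells was at 1.56 and called higher, on 5 and 26 UMIs. Arntl, whose RNA the REV-ERB proteins repress, did not reach 20 UMIs in any class. Its UMIs were 10 and 7 in beta-like, 12 and 4 in alpha-like and 6 and 1 in delta-like cells. Summed with Clock, the ratio was 0.15 (-0.36 to 0.64) in beta-like, -0.22 (-1.17 to 0.65) in alpha-like and -0.36 (-1.36 to 0.55) in delta-like cells. At these counts a difference of Arntl between the diets was not detectable in either direction.

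**Figure D2:**
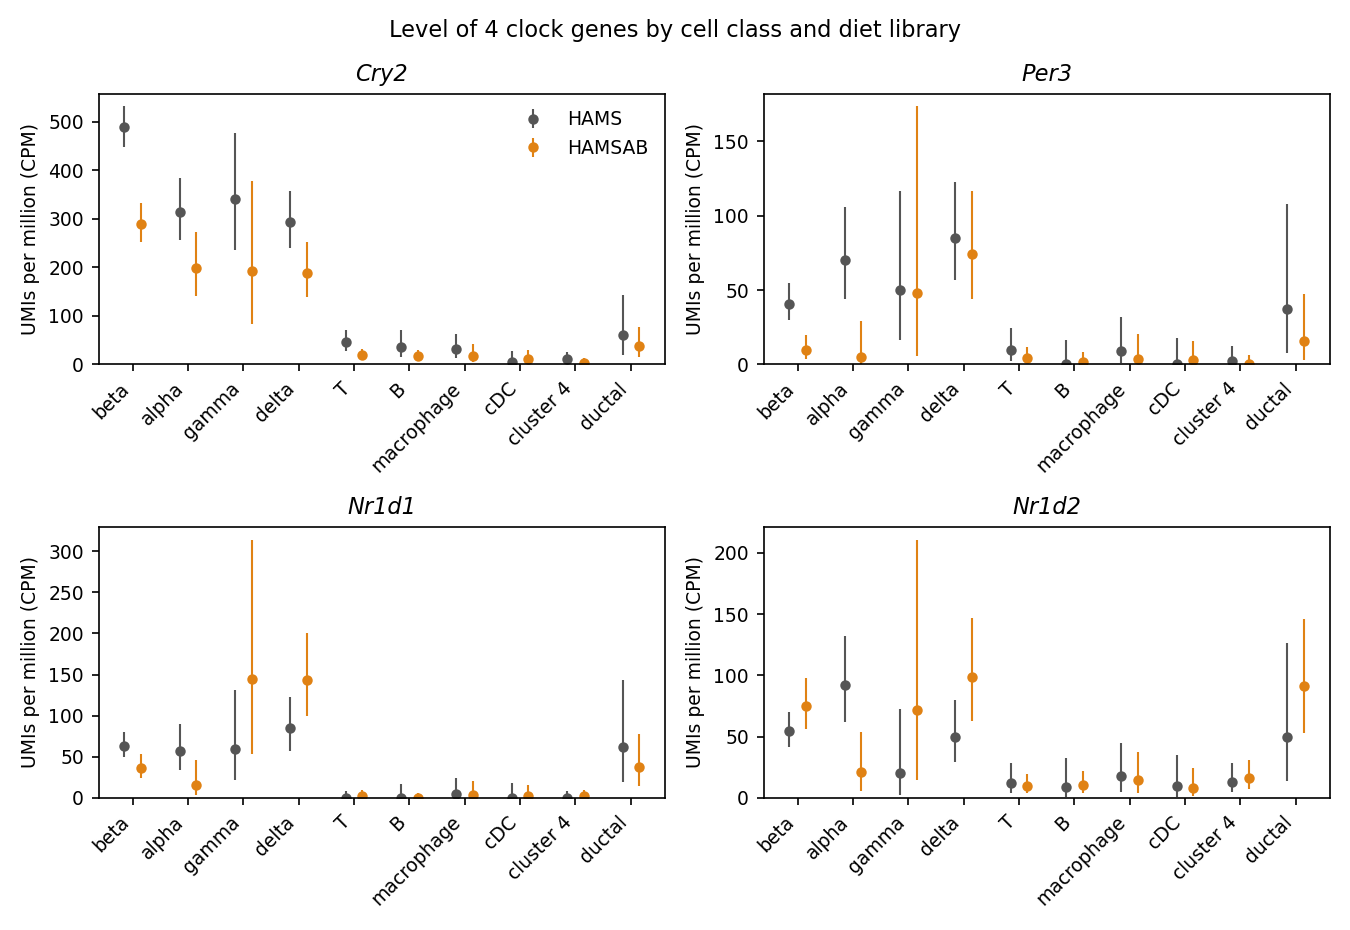
Level of Cry2, Per3, Nr1d1 and Nr1d2 (y axis, CPM) by cell class (x axis) in the HAMS library (grey) and the HAMSAB library (orange), with exact 95% Poisson intervals. Cry2 falls between 189 and 488 CPM in beta-like, alpha-like, gamma-like and delta-like cells and lower in the other classes shown, and Per3 is near 0 in beta-like and alpha-like cells of HAMSAB but not in delta-like cells.

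The level of Cry2 was highest in the endocrine classes among those plotted. In HAMS, Cry2 was at 488 CPM in beta-like, 341 (236 to 476) in gamma-like, 315 (256 to 383) in alpha-like and 294 (239 to 358) in delta-like cells, and in HAMSAB at 290, 192, 199 and 189 CPM. Beta-like cells stood above alpha-like and delta-like cells in HAMS beyond counting error, and the intervals of the other 3 classes overlapped one another. Of the other classes plotted, ductal-like cells followed with 61.7 and 37.6 CPM, and T-like, B-like, macrophage-like and cDC-like cells and cluster 4 with 3.61 to 46.0 CPM. Among the classes in which Per1 could be read, its HAMS levels ran from 21.8 CPM in T-like cells to 82.7 CPM in alpha-like cells. Per3 and Nr1d1 in HAMS were at 85.3 CPM each in delta-like cells, and in beta-like cells at 40.9 and 63.6 CPM.

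**Figure D3:**
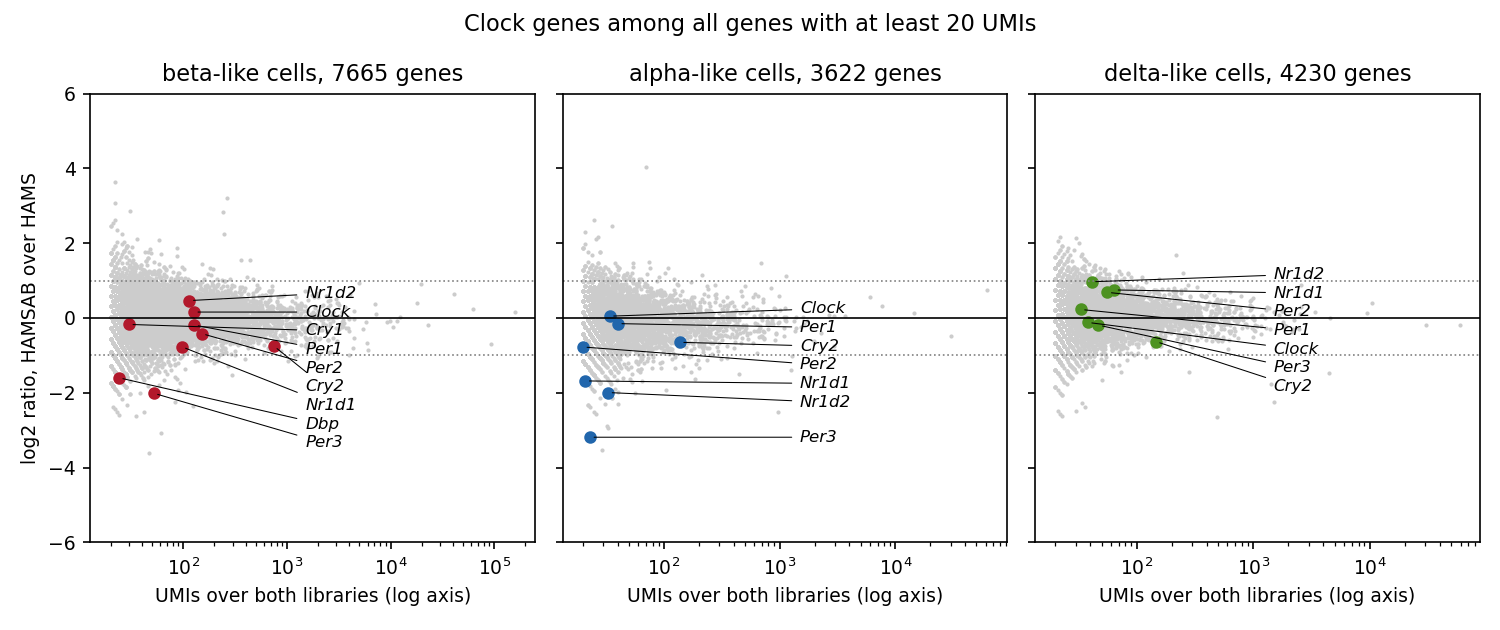
Log2 ratio of HAMSAB over HAMS (y axis) against UMIs over both libraries (x axis, log scale) for every gene with at least 20 UMIs in beta-like (7665 genes), alpha-like (3622) and delta-like (4230) cells, grey, with the clock genes coloured and named. Dotted lines mark a 2-fold difference. Per3 lies at the lower edge of the grey points in beta-like and alpha-like cells, and Cry2 lies below 0 in all 3 classes, with 14 of 569 genes of like count lower in beta-like, 97 of 893 in alpha-like and 31 of 1015 in delta-like cells.

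These counts are to be read against all genes. In beta-like cells 2 of 9 members were called lower and 0 higher, where 2.58% of all genes read were called lower and 2.71% higher. In alpha-like cells 3 of 7 members were called lower and 0 higher, against 3.89% and 2.4% of all genes. In delta-like cells 0 of 7 were called, against 1.68% lower and 3.07% higher. In T-like cells 1 of 3 members was called lower and 0 higher, against 2.02% and 3.3%. The remaining classes had 0 called members: 0 of 1 in gamma-like cells (2.8% of all genes lower, 3.4% higher), 0 of 2 in B-like cells (2.36% and 2.86%), 0 of 1 in macrophage-like cells (3.47% and 2.71%), 0 of 2 in cluster 4 (2.05% and 2.72%) and 0 of 1 in ductal-like cells (3.59% and 4.14%). No member reached 20 UMIs in cDC-like, pDC-like (plasmacytoid dendritic), endothelial-like or plasma-like cells. With so few members in a class, a share of members is coarse.

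Read together, the 6 genes of the arm opposite to Arntl did not go the same way in every class. Their median log2 ratio was -0.59 (median bounds -1.21 to -0.02) in beta-like cells, with 5 of 6 below 0, and -1.64 (-4.19 to 0.29) in alpha-like cells, with 6 of 6 below 0. In delta-like cells it was 0.46 (-0.50 to 1.51), with 2 of 6 below 0, and 0.68 over the 5 genes read. Median bounds are the medians of the members' lower and upper bounds, and not an interval of the median itself. The median over all genes read was 0.02, -0.08 and 0.08 in these classes. Summed over the 6 genes, beta-like cells had 377 UMIs in HAMS and 190 in HAMSAB (ratio -0.40, -0.66 to -0.14), alpha-like cells 112 and 27 (-1.31, -2.0 to -0.72) and delta-like cells 128 and 128 (0.48, 0.12 to 0.85). The sums of alpha-like and delta-like cells thus lay on opposite sides of 0. Gamma-like cells had 27 and 13 UMIs (0.23, -0.87 to 1.21), T-like cells 18 and 40 (0.31, -0.50 to 1.23) and ductal-like cells 18 and 43 (0.03, -0.77 to 0.94), all with intervals that take in 0. The medians were 0.15 in T-like, -0.63 in B-like, -0.28 in macrophage-like and 0.26 in cDC-like cells, where most of the 6 genes had few UMIs.

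The classes were compared gene by gene through the difference of their log2 ratios, with an exact conditional 95% interval. Of 21 such differences among the beta-like, alpha-like and delta-like classes for 7 genes, 7 had an interval that left out 0. The alpha-like ratio lay below the delta-like ratio by -3.07 (-5.28 to -1.23) for Nr1d2, -2.59 (-5.13 to -0.62) for Nr1d1 and -3.49 (-8.98 to -0.62) for Per3. The beta-like ratio lay below the delta-like ratio by -1.53 (-2.57 to -0.51) for Nr1d1, -1.87 (-3.55 to -0.34) for Per3 and -1.11 (-2.08 to -0.14) for Per2. Between alpha-like and beta-like cells the interval for Nr1d2 alone left out 0, at -2.59 (-4.65 to -0.95). For Cry2 all 3 differences took in 0, the alpha-like ratio differing from the delta-like by -0.02 (-0.81 to 0.76). These intervals also cover counting error alone, and no adjustment was made over the 21.

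The question behind reading these genes by class is whether 1 shift of phase, as from an hour of harvest that differed between the diets, is shared by all cells of a library. The classes of a diet come from 1 library each. The measured ratios of Per2, Per3, Nr1d1 and Nr1d2 differed between delta-like cells and at least 1 of the other endocrine classes. These differences were computed on the reported counts alone, where they went beyond counting error. After thinning to 500 UMIs per cell the delta-like ratios of Nr1d1 and Nr1d2 changed sign. The alpha-like calls were lost under several planned settings. Cry2 was lower in the beta-like, alpha-like and delta-like classes alike. Arntl, the gene that would be opposite in phase, was too sparse to read. The phase and amplitude of each class's clock were not measured, so like or unlike ratios between classes cannot decide whether 1 shift was shared. The hour of harvest is not in the labels, and whether it, the diet or the preparation of the islets moves with these values was not tested and cannot be told apart with 1 library per diet.

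Within beta-like cells the Per3 and Cry2 ratios were below 0 in both clusters, and in cluster 11 both intervals took in 0. Cluster 3 had 38 and 6 UMIs of Per3 (ratio -1.94), and cluster 11, led by interferon-induced genes such as Iigp1 and Rsad2, had 7 and 1 (-1.98, -7.95 to 0.5). Cry2 had 487 and 182 UMIs in cluster 3 (-0.80) and 50 and 30 in cluster 11 (-0.38, -1.09 to 0.29). With finer clustering the Cry2 ratio was below 0 in all 6 beta-like clusters, from -1.82 to -0.47. The diets filled these clusters unequally, from 328 HAMS and 79 HAMSAB cells in 1 cluster to 262 and 274 in another, and the part of this in the ratios of the whole class was not tested. Per3 was not below 0 in all of them: in 1 it had 7 and 4 UMIs and a ratio of 1.17 (-1.12 to 3.07). In the 2 larger groupings Nr1d1 was at -0.62 (-1.38 to 0.05) in cluster 3 and -1.72 (-5.21 to 0.25) in cluster 11.

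Other genes of the clock were read from lists of accessory and output genes. Among 12 clock output genes, 8 could be read in beta-like cells, 5 of them below 0 and 0 called. The median of the genes read was -0.68 there, -0.35 in alpha-like cells (5 genes) and 0.19 in delta-like cells (7 genes). Over all 12, with the genes under 20 UMIs, it was -0.68, -0.12 and 0.48. Bhlhe41 (DEC2), a repressor that acts on E-boxes, had 1865 UMIs (1696 CPM) in HAMS and 664 UMIs (908 CPM) in HAMSAB in beta-like cells, a ratio of -0.90 (-1.03 to -0.77). The authors' deposited table for beta cells gives Bhlhe41 a log2 fold change of -0.74, from the same 2 libraries. In alpha-like cells Bhlhe41 was at -0.35 (-0.66 to -0.05), and in delta-like cells at -0.08 (-0.30 to 0.13). Coq10b was at -0.97 (-1.53 to -0.46) in beta-like cells and, on 15 and 18 UMIs, at 0.74 (-0.33 to 1.84) in delta-like cells. Nfil3, a repressor that competes with DBP for D-boxes, was at 0.22 (-0.16 to 0.60) in beta-like cells.

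The 15 accessory genes include kinases, ligases and receptors that tune the loop, and other factors such as Bhlhe40 and Nono. Of the 15, 9 could be read in beta-like cells with 0 called, and the median of the 9 was 0.05. In alpha-like cells 7 could be read and 1 was called higher, where 2.4% of all genes read were. This was Rora, a nuclear receptor that activates Arntl through the same elements that the REV-ERB proteins bind, with 24 and 30 UMIs (76.3 and 157 CPM) and a ratio of 1.04 (0.22 to 1.88). Rora was at 0.27 (-0.17 to 0.69) in beta-like cells. In T-like cells 9 could be read and 1 was called lower, where 2.02% of all genes read were. It was Csnk1e, the casein kinase that marks PER proteins for turnover, with 16 and 9 UMIs, at -1.61 (-3.01 to -0.38). Bhlhe40 (DEC1) had 256 and 640 UMIs in T-like cells, a ratio of 0.50 (0.29 to 0.72), and 38 and 220 in B-like cells, at 0.95 (0.47 to 1.5).

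Signals that reset the clock, and the stress of dissociating islets, also act on some of these genes, and lists for them were read beside the members. The 24 immediate early and dissociation genes had a median, over the genes read, of -0.31 in beta-like cells (18 of 22 below 0), -0.40 in alpha-like cells (15 of 20) and -0.13 in delta-like cells (12 of 19). Fos was lower in all 3, at -0.86 in beta-like, -2.52 in alpha-like and -1.75 in delta-like cells, as was the chaperone gene Dnajb1 at -1.15, -1.64 and -1.45. Other genes of these lists were above 0. Klf6 was so in all 3, at 0.85 in beta-like, 0.88 in alpha-like and 0.77 in delta-like cells, and Hsph1 was at 0.55 in delta-like cells. The 10 glucocorticoid-induced genes, which include Per1, had medians over the genes read of -0.08, -0.11 and 0.24, and the 15 heat and cold shock genes -0.07, 0.03 and -0.07, in the same order of classes. Over all members the sign differed for both lists in beta-like cells (0.06 and 0.01) and for the heat and cold shock genes in alpha-like cells (-0.13). In T-like cells 2 of 9 glucocorticoid-induced genes read were called higher, Tsc22d3 at 1.85 (0.48 to 3.96) and Sgk1 at 1.41 (0.22 to 3.06), where 3.3% of all genes were. Of the same 9 genes 5 were below 0, among them Klf9 at -1.07 (-2.45 to 0.26), and their median was -0.06. The part of dissociation or hormone signals in the clock gene ratios was not tested.

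RNA of other cell types also differed between the libraries within a class. The 10 beta cell markers summed to 5542 CPM in alpha-like cells of HAMS and 2209 CPM in those of HAMSAB, with 10 of 10 lower in HAMSAB, and the 6 delta cell markers to 5218 and 1916 CPM, with Hhex and Ghsr at 0. In beta-like cells the delta markers summed to 3400 and 763 CPM and the 8 alpha markers to 3002 and 2040 CPM. In delta-like cells the alpha markers summed to 10825 and 4064 CPM, and the beta markers to 8709 and 7203 CPM. Of these beta markers 8 of 10 were lower in HAMSAB. Ins2 was at 3849 and 809 CPM and Ins1 at 1295 and 205 CPM there, while Iapp was higher in HAMSAB, at 3275 and 6057 CPM. Acinar markers went the other way, from 0.9 to 73.9 CPM in beta-like and from 6.4 to 115 CPM in alpha-like cells. Own hormones were taken as Ins1, Ins2 and Iapp for beta-like, Gcg for alpha-like and Sst for delta-like cells. Iapp, at 41.2% and 40.7% of its beta-like level in delta-like cells, was thus counted as another hormone there. In HAMS and HAMSAB, cells in which other islet hormones held over 1% of UMIs were 9.58% and 3.15% of beta-like cells. They were 16.3% and 7.45% of alpha-like and 31.6% and 29.0% of delta-like cells. Without them, an alternative chosen after the data were seen, the median of the 6 genes was -0.77 in beta-like, -1.84 in alpha-like and 0.35 in delta-like cells. Per3 in beta-like cells was then at -2.13, with 37 and 6 UMIs, and called. Nr1d2 in alpha-like cells was at -1.84, with 22 and 4 UMIs, and called, while Per3 (14 and 0 UMIs) and Nr1d1 (15 and 1) there fell under 20 UMIs.

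**Figure D4:**
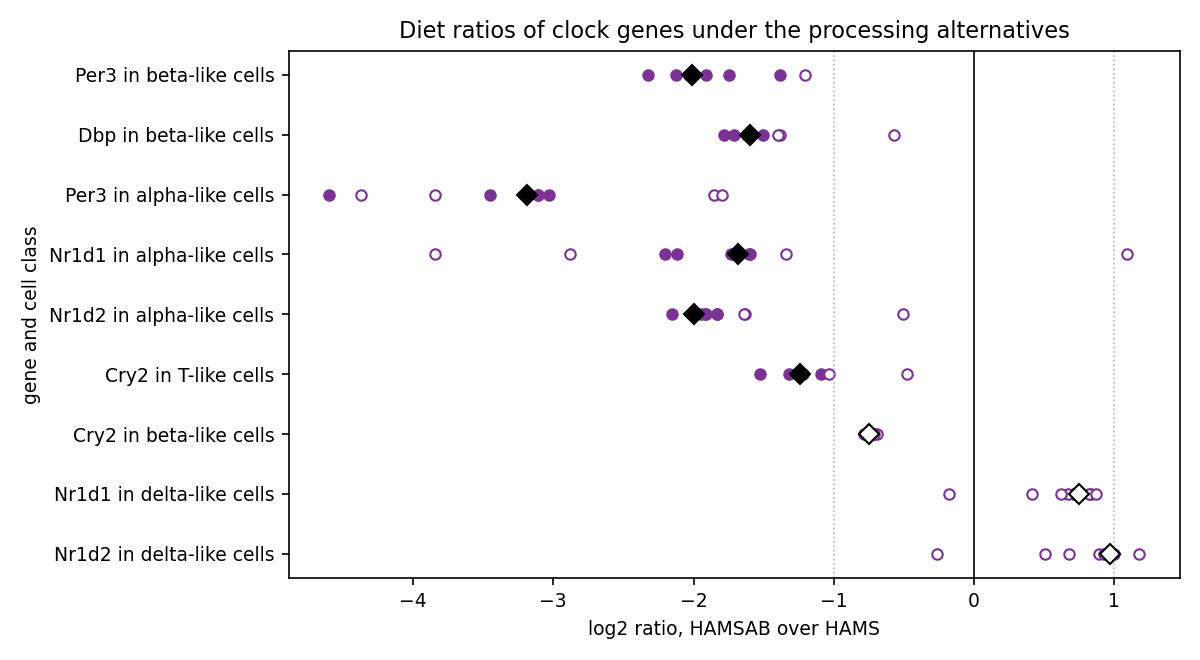
Log2 ratio of HAMSAB over HAMS (x axis) for 9 pairs of a clock gene and a cell class (y axis) as reported (diamonds) and under the processing alternatives (circles). Filled symbols were called, open ones were not, and dotted lines mark a 2-fold difference. Cry2 in beta-like cells moves least, and Nr1d1 in alpha-like cells crosses 0 under 1 alternative that left 1 UMI in each library.

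The alpha-like calls rest on few UMIs and were lost under 3 planned settings. With at least 500 genes per cell, Nr1d1 in alpha-like cells had 1 UMI in each library. When cells were classed singly by their markers, Nr1d2 had 14 and 7 UMIs and a ratio of -0.51, Nr1d1 15 and 4 and -1.34, and Per3 16 and 3 and -1.79. With cells thinned to 500 UMIs, Per3 and Nr1d1 had 11 and 0 UMIs each and Nr1d2 12 and 2. Per3 in beta-like cells was called under 8 of 9 alternatives and lay between -2.32 and -1.21, with 24 and 6 UMIs where it was not called, after thinning. Dbp in beta-like cells was called under 6 of 9, between -1.79 and -0.57.

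Likeness of pattern was measured over 16 points, 8 classes in 2 libraries, as Pearson's r of log2(CPM + 10) among 4559 genes. The points share libraries and depth, and r is a description. The gene most like Cry2 was Sec23ip (r = 0.983), the gene most like Per2 was Sec31a (0.954), and the gene most like Nr1d2 was Ush1c (0.937), with Per2 at 0.931. Ubn2 was most like Clock (0.927) and Irs2 most like Per1 (0.902). The other 5 members had under 200 UMIs over these points and were not compared.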

How the data were processed

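Islets of NOD mice were profiled in 2 droplet libraries, 1 per diet, made with a Chromium 3' kit per the labels. The deposited matrices hold raw UMI counts per gene and barcode, written by Cell Ranger 5.0.0 per the file headers. Per the submitters' processing notes, the builds were mm10 and GRCm38 and Seurat was used. How introns and strand were counted is not stated in any label or header. A further 8 tables of comparisons from the authors hold log2 fold changes, p-values and the fraction of cells with the gene, and name no test. With 1 library per diet, those p-values cannot measure the spread between libraries of a diet. Of these, 8 columns of fractions, in tables whose rows alternate between the diets, were not used.

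Barcodes under 200 genes or over 20% mitochondrial UMIs were removed (scanpy 1.11.5). Scrublet called 4 cells (0.0454%), a share under 0.5% that was read as a failed call, and doublets were not removed. Both libraries were clustered together (2000 variable genes, 30 principal components, 15 neighbours, Leiden resolution 1, igraph 0.11.9) and clusters were named by fixed markers. That cluster 4 stayed unnamed was settled after its leading genes were seen. Ratios have exact conditional binomial intervals and levels exact Poisson intervals (scipy 1.17.1). The code was tested on simulated data. No test was made between the diets, since cells are not replicates. UMIs per class ranged from 191037 to 1099902 in the 3 main endocrine classes (beta-like, delta-like, alpha-like).

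The members, the gene lists (clock accessory, clock output, glucocorticoid induced, immediate early and dissociation, heat and cold shock), the rules and the alternatives were chosen with earlier results of these data known. The genes to be named were all 10 members and, per list and class of at least 100 cells per library, up to 2 genes of highest and 2 of lowest ratio by the interval bound nearest 0, plus list genes in the deposited tables and the 3 genes most like a member. The selection printed from these was made with their values in view.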

Additional observations from a re-analysis of the deposited data

Results flagged for a closer look

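Nr1d1 and Nr1d2 went one way in alpha-like cells and the other way in delta-like cells of the same 2 libraries. Each class's counting interval left out 0, in delta-like cells barely, with lower bounds of 0.001 for Nr1d1 and 0.02 for Nr1d2. The alpha-like log2 ratio was below the delta-like one by -2.59 for Nr1d1 and -3.07 for Nr1d2. Nr1d1 also lay below 0 in beta-like cells and above 0 in delta-like cells, a difference of -1.53. With 1 library per diet none of these differences was tested across samples. After thinning to 500 UMIs per cell the delta-like ratios of Nr1d1 and Nr1d2 were below 0. The alpha-like calls of both genes were lost under several planned settings. With at least 500 genes per cell the alpha-like ratio of Nr1d1 was 1.09, on 1 UMI in each library. With cells classed singly by their markers that of Nr1d2 was -0.51.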

How the results depend on the processing

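Of 285 values of a clock gene in a class under the alternatives, 278 stayed within the counting interval of the reported value. Another 6 left it and 1 was counted as reversed. Among the 6, Nr1d1 and Nr1d2 in delta-like cells also changed sign, to below 0, after thinning to 500 UMIs per cell. The value counted as reversed was Nr1d1 in alpha-like cells, at 1.09 with at least 500 genes per cell, on 1 UMI in each library. In place of 6 pairs called lower, there was 1 with at least 50 UMIs over both libraries, 2 with at least 500 genes per cell and 2 after thinning to 500 UMIs. The 2 after thinning were Nr1d1 in beta-like and Cry2 in delta-like cells, so none of the 6 reported pairs was called there. These settings leave fewer UMIs, and so fewer pairs that can be read. With each cell weighted equally, 1 pair, Clock in B-like cells, was called higher in place of 0, at 1.56 in place of 0.70. The median of the 6 genes of the arm opposite to Arntl lay between -0.77 and -0.44 in beta-like, -1.84 and -0.92 in alpha-like and 0.19 and 0.67 in delta-like cells. It changed sign under at least 1 alternative in T-like, macrophage-like and cDC-like cells. No paired analysis was possible because each diet has 1 library. Depth limits the reading to 33 of 130 pairs, and Arntl to none.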
